A study of Mus musculus with 48 samples.

Results

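The enzymes that take amino acids apart in the liver, and those of the urea cycle that dispose of the nitrogen set free, were read as 39 genes in mouse liver RNA. Each gene was found by its symbol in the gene name column of the arrays, with control spots left out, and was represented by its brightest tested probe. All 39 had a tested probe, out of 22029 named genes with a tested probe, and all 39 were well above background on all 48 arrays. The genes were grouped by role: 9 of the urea cycle and ammonia handling, 8 aminotransferases, 8 for aromatic amino acids and histidine, 8 for serine, glycine, proline, lysine and branched chain amino acids, and 6 for methionine and sulfur metabolism together with asparagine synthesis. The livers came from male C57Bl6J mice, 20 weeks old, housed at thermoneutrality, fed either a control diet (CTRL) or a high fat diet (HFD) with 60% fat for 12 weeks according to the labels, and killed in the fed state. There were 3 genotypes with 8 mice on each diet. *WT* mice carried intact *Pparα*, the gene of a fatty acid-sensing nuclear receptor. *Pparα hep-/-* mice (labelled PPARaLKO) carried floxed *Pparα* alleles with an albumin-Cre transgene, which removes the gene from hepatocytes only, and *Pparα-/-* mice (labelled PPARaKO) lacked it in the whole body. *WT* mice were bought from a supplier and carried neither Cre nor floxed alleles, whereas both mutant lines were bred in house, so genotype and colony cannot be told apart in any comparison with *WT*.

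In liver, most amino acids first lose their amino group to α-ketoglutarate through aminotransferases, and glutamate dehydrogenase then frees it as ammonia. Ammonia and bicarbonate enter the urea cycle in the mitochondria through carbamoyl phosphate, and the carbon skeletons go to glucose, ketone bodies or the citric acid cycle. Branched chain amino acids differ in that their transamination takes place mainly outside hepatocytes. PPARα drives fatty acid oxidation genes in fasting, and its agonists are known to lower several urea cycle and transamination enzymes in mouse liver.

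Levels are given as log2 signal, the quantile-normalised log2 of the median spot intensity adjusted for wash batch, and changes and differences as differences of log2 signal, so that a difference of 1 is a 2-fold change in signal. Probe brightness depends on the probe, so signals do not rank genes by RNA level. The 48 one-colour arrays had a median spot intensity of 56 to 91, and 28234 to 38217 of 59305 spots were well above background. Member genes were bright, with a median signal of 14.68 against 7.85 over all tested probes. *Pparα* signal itself was lower than in *WT* by 0.65 (adjusted p = 1.1e-06) in *Pparα-/-* and by 0.42 (adjusted p = 0.000887) in *Pparα hep-/-* on CTRL. On HFD it differed from *WT* by -1.08 (adjusted p = 2.77e-14) in *Pparα-/-* and by -0.85 in *Pparα hep-/-* (adjusted p = 5.12e-10). A second tested *Ppara* probe was lower than in *WT* by 1.11 (adjusted p = 5.27e-13) on CTRL and 1.29 on HFD in *Pparα-/-*. Its difference in *Pparα hep-/-* was -0.10 (adjusted p = 0.454) on CTRL and -0.68 (adjusted p = 3.34e-08) on HFD. Of 18 PPARα target genes, 2 were higher and 9 lower than in *WT* in *Pparα-/-* on CTRL, and 0 and 12 on HFD. The counts in *Pparα hep-/-* were 4 and 4 on CTRL, with a median difference of 0.34, and 1 and 8 on HFD. Where the probes lie relative to the deleted exon was not examined, so they check the labels in part, and for *Pparα hep-/-* on CTRL the probes and the targets were mixed. The fit gave 4 arrays weights below 0.4: *WT* CTRL replicate 6, *WT* HFD replicates 2 and 6, and *Pparα hep-/-* CTRL replicate 1. Summed signal of 9 hepatocyte genes lay between 21.01 and 21.20 on all arrays.

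On HFD, more of the amino acid genes rose than fell in *WT* mice, and more fell than rose in *Pparα-/-* mice. In *WT*, 12 members rose and 6 fell, against 8.6% and 10.1% of all 33323 tested probes. In *Pparα hep-/-*, 5 rose and 3 fell (background 9.46% and 10.8%), and in *Pparα-/-*, 3 rose and 12 fell (background 12.2% and 12.6%). The share of members called lay above the background in both directions in *WT*, for increases in *Pparα hep-/-* and for decreases in *Pparα-/-*, and below it otherwise. The median member log2 change was 0.07, -0.04 and -0.12 in that order, and that of all tested probes was -0.01, -0.01 and -0.02. The threshold for a call was 0.05 on limma's Benjamini-Hochberg p, taken over every tested probe. Without *WT* HFD replicate 7 the *WT* count was 11 members in all, without *Pparα hep-/-* HFD replicate 5 or 6 the *Pparα hep-/-* count was 5, and without *Pparα-/-* CTRL replicate 7 the *Pparα-/-* count was 9. No member rose in one genotype and fell in another. *Bckdhb* and *Got2* rose and *Cps1* fell in all 3 genotypes, and 8 members (*Aass*, *Agxt*, *Asns*, *Bcat2*, *Cth*, *Gldc*, *Glud1*, *Hpd*) were called in no diet comparison. The split depended on how the arrays were scaled. With the scanner's processed signal scaled to its 75th percentile the members gave 9 up and 3 down in *WT* (background 9.09% and 9.09%), 1 up and 10 down in *Pparα hep-/-* (8.65% and 16.4%), and 0 up and 19 down in *Pparα-/-* (10.4% and 16%), and no call turned to its opposite. The calls it lost were those of *Ass1*, *Gls2*, *Oat*, *Fah*, *Bckdha* and *Cbs* in *WT*, *Otc*, *Got2*, *Gpt* and *Tdo2* in *Pparα hep-/-*, and *Got2*, *Bckdha* and *Bckdhb* in *Pparα-/-*. Beside these counts, 0, 6 and 10 of 12 Kupffer cell and macrophage genes and 0, 7 and 8 of 10 stellate cell and fibroblast genes rose on HFD in *WT*, *Pparα hep-/-* and *Pparα-/-*. The summed log2 signal of the macrophage genes on HFD ran from 14.30 to 16.72 in *WT*, 15.73 to 16.62 in *Pparα hep-/-* and 15.80 to 16.96 in *Pparα-/-*, and its part in the member counts was not tested.

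**Figure D1:**
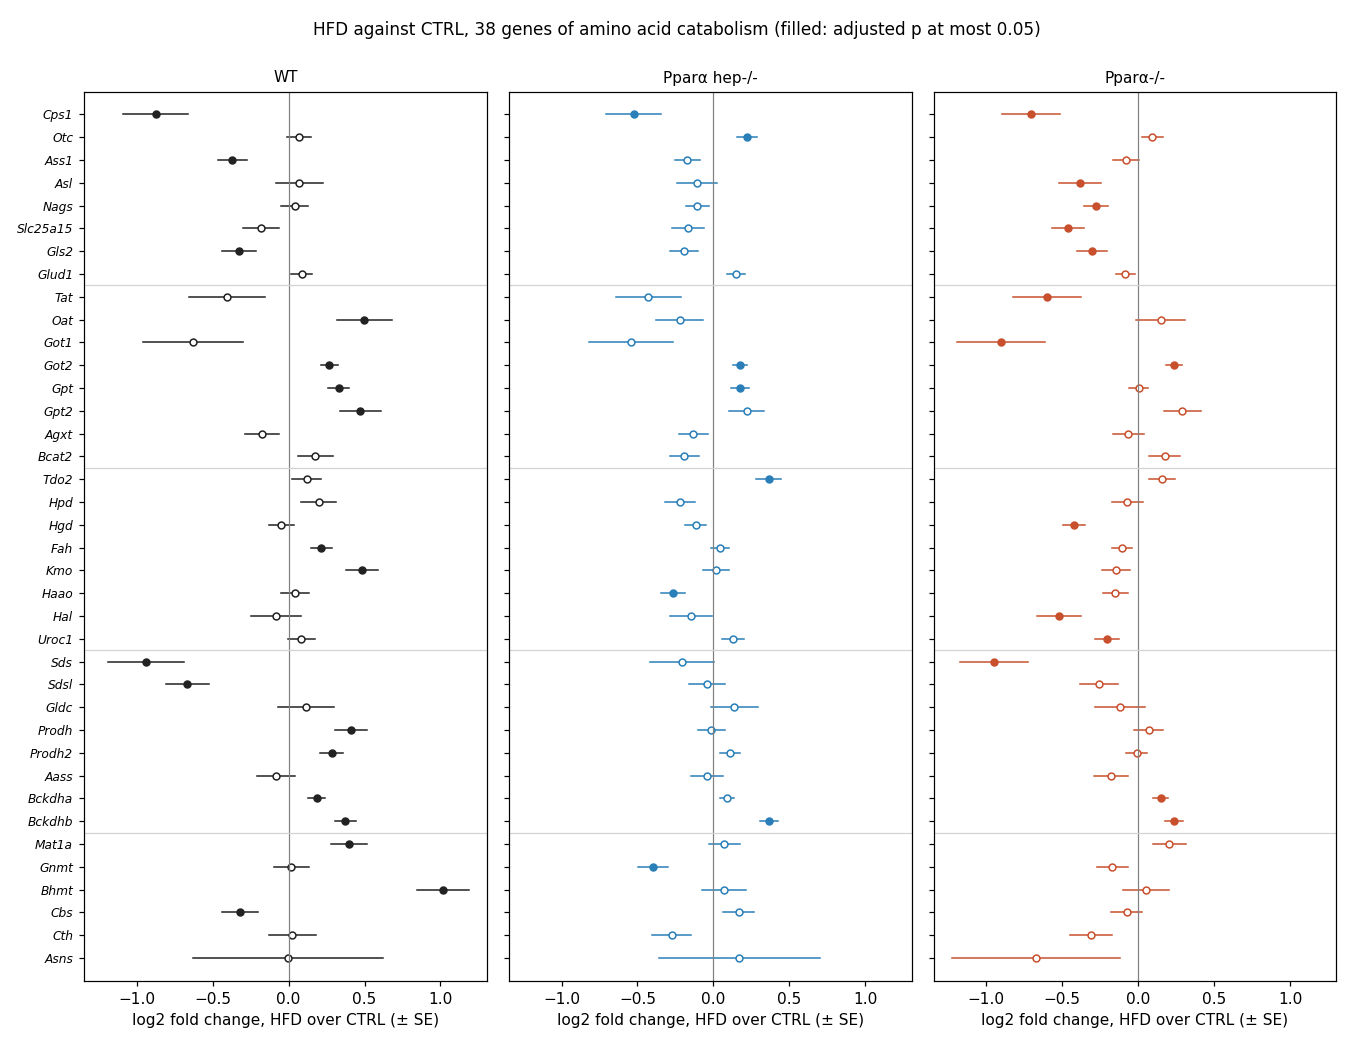
Log2 change of signal on HFD over CTRL for 38 of the 39 genes in WT, Pparα hep-/- and Pparα-/- livers, with bars of 1 SE and filled points for called genes. In WT 12 filled points lie to the right of 0 and 6 to the left, and in Pparα-/- 3 lie to the right and 11 to the left.

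Against *WT* on CTRL, *Pparα-/-* livers had 11 members higher and 6 lower (background 15.6% and 18.7%), and *Pparα hep-/-* livers had 10 higher and 4 lower (background 11.3% and 13.4%). On HFD, *Pparα-/-* had 6 members higher and 12 lower than *WT* (background 21.8% and 24%), and *Pparα hep-/-* had 9 higher and 4 lower (background 13.3% and 13.4%). *Pparα-/-* against *Pparα hep-/-* gave 6 higher and 4 lower on CTRL (background 12.2% and 13%) and 3 higher and 10 lower on HFD (background 15.2% and 15.4%). The share of members called lay above the background for higher members in both mutants against *WT* and between the mutants on CTRL, for higher members of *Pparα hep-/-* on HFD, and for lower members of *Pparα-/-* on HFD in both its comparisons. The other shares lay below it. The 13 calls of *Pparα hep-/-* against *WT* on HFD became 6 without *Pparα hep-/-* HFD replicate 6 or *WT* HFD replicate 5, and 8 without *Pparα hep-/-* HFD replicate 7. Median member log2 differences were 0.10 and 0.10 against *WT* on CTRL, -0.08 in *Pparα-/-* and 0.05 in *Pparα hep-/-* against *WT* on HFD, and -0.06 and -0.16 between the mutants. With the processed signal the HFD comparisons with *WT* became 2 higher and 19 lower in *Pparα-/-* (background 18.6% and 30.5%), and 0 higher and 11 lower in *Pparα hep-/-* (12.4% and 20.4%), all 9 of its higher calls being lost. On CTRL *Pparα hep-/-* became 11 higher and 2 lower (12% and 12.8%). Lost among the other genotype calls were *Otc*, *Ass1*, *Glud1* and *Fah* in *Pparα-/-* against *WT* on CTRL and *Otc*, *Oat*, *Agxt* and *Prodh* on HFD, *Cps1*, *Agxt* and *Bcat2* in *Pparα hep-/-* on CTRL, and *Ass1* and *Gnmt* between the mutants on CTRL. In *Pparα-/-*, 9 members differed from *WT* in the same direction on both diets (among them *Bcat2*, *Bckdhb*, *Cps1*, *Glud1*, *Oat*, *Otc*, *Prodh*, *Sdsl*), 5 higher and 4 lower, against 9.37% and 11.1% of all tested probes. In *Pparα hep-/-* 6 did (*Aass*, *Agxt*, *Glud1*, *Gpt*, *Gpt2*, *Prodh*), 4 higher and 2 lower, against 4.05% and 4.14%. Only *Asns* and *Hpd* passed in none of the 12 comparisons. The diet and genotype comparisons share groups, so 1 unusual group enters several of them.

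**Figure D2:**
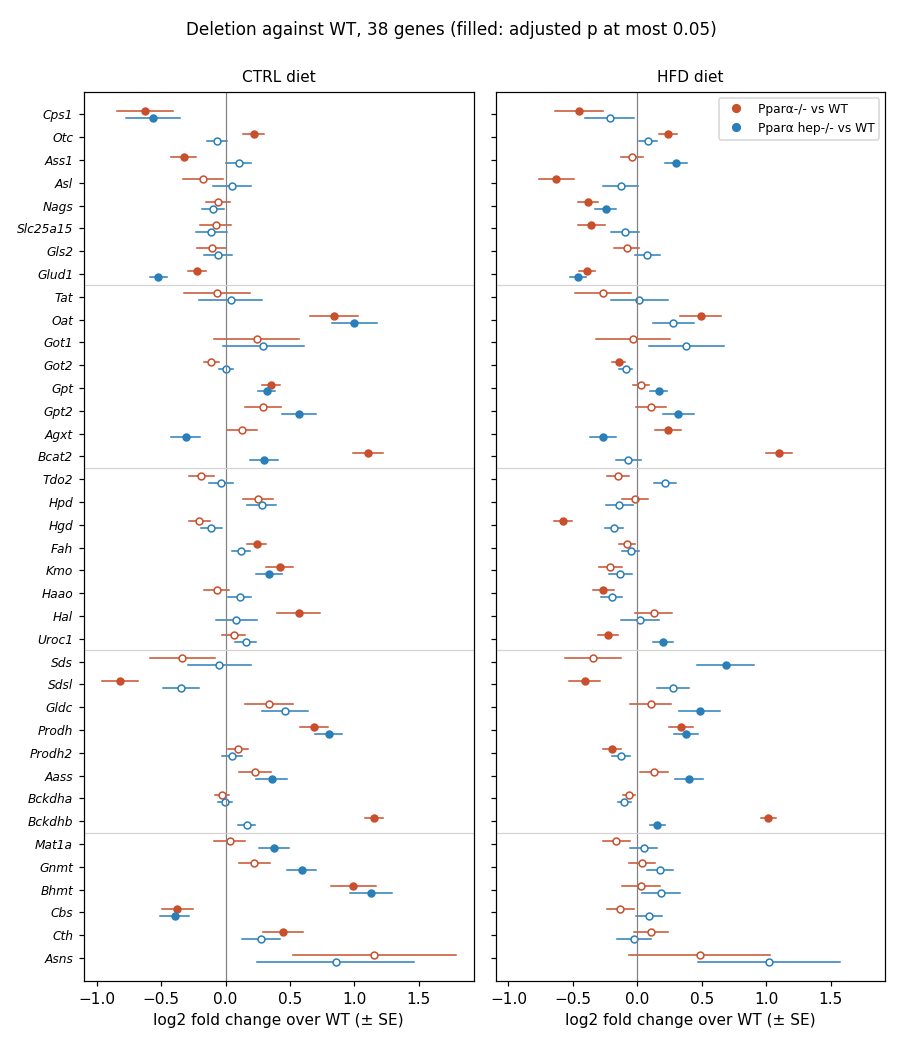
Log2 difference from WT of 38 of the 39 genes in Pparα-/- and Pparα hep-/- livers, on CTRL and on HFD, with bars of 1 SE and filled points for called genes. Bckdhb and Bcat2 lie near 1 in Pparα-/- on both diets, whereas Bhmt lies near 1 in both mutants on CTRL and near 0 on HFD.

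The diet response itself was compared between genotypes as an interaction. In *WT* minus *Pparα hep-/-* it was called higher for 4 members and lower for 2 (background 5.79% and 4.62%), and in *WT* minus *Pparα-/-* higher for 5 and lower for 0 (background 7.42% and 6.93%). Between the mutants, 0 members were called in either direction (background 1.3% and 2.12%). At an unadjusted limma p of 0.05 the count between the mutants was 4 higher and 1 lower. The share of all tested probes was not taken at that threshold, so this count has no background to set it against. When all tested probes of a gene were used, 1 member was called between the mutants. *WT* minus *Pparα hep-/-* became 12 higher and 0 lower with the processed signal (background 9.05% and 4.15%), and *WT* minus *Pparα-/-* 11 higher and 0 lower (9.71% and 5.11%). The 6 calls of the first interaction depended on single arrays. They became 2 without *WT* HFD replicate 7 or *WT* CTRL replicate 2, and 3 without *WT* CTRL replicate 3 or 5, *WT* HFD replicate 4, 5 or 8, *Pparα hep-/-* CTRL replicate 4 or 7, or *Pparα hep-/-* HFD replicate 5 or 6. Without array weights there were 0. The members called higher against *Pparα hep-/-* were *Bhmt*, *Oat*, *Kmo* and *Prodh*, and those called lower were *Sdsl* and *Cbs*. Against *Pparα-/-* they were *Bhmt*, *Kmo*, *Hgd*, *Gpt* and *Fah*.

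Among the 9 urea cycle and ammonia genes, 6 fell on HFD in *Pparα-/-*, 3 in *WT* and 1 in *Pparα hep-/-*, where *Otc* rose. The background for a decrease was 12.6%, 10.1% and 10.8% in that order, and 0 of the 9 were called in any of the 3 comparisons of the diet response between genotypes. *Cps1*, which makes carbamoyl phosphate and sets the pace of the cycle, had a lowest, median and highest signal of 13.87, 14.67 and 14.94 in *WT* on CTRL and 12.86, 13.77 and 14.43 on HFD. In *Pparα hep-/-* the values were 13.53, 14.00 and 14.43 on CTRL and 12.61, 13.52 and 14.36 on HFD, and in *Pparα-/-* 13.40, 14.10 and 14.48 on CTRL and 12.67, 13.30 and 14.07 on HFD. *WT* mice on CTRL were the highest group by median and the ranges of all groups overlapped. The log2 change on HFD was -0.88 ± 0.21 (SE, adjusted p = 0.00275) in *WT*, with 8 of 8 HFD mice below the CTRL mean. It was -0.53 ± 0.18 (adjusted p = 0.0338, 7 of 8) in *Pparα hep-/-* and -0.71 ± 0.19 (adjusted p = 0.00511, 7 of 8) in *Pparα-/-*. On CTRL, *Cps1* was also lower than in *WT* by 0.62 ± 0.22 in *Pparα-/-* (adjusted p = 0.0224) and by 0.56 ± 0.21 in *Pparα hep-/-* (adjusted p = 0.0409), each with 8 of 8 mice below the *WT* mean. Both were near the threshold: the first was lost without *Pparα-/-* CTRL replicate 2 or 6, and the second on leaving out any of 9 arrays. In the 2 wash batches the *Pparα hep-/-* diet change was -0.98 and -0.24. Its call was lost on leaving out any of 8 arrays, without array weights, without the filter on dim probes and with the deposited table (adjusted p = 0.0538), among others.

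*Otc*, which joins carbamoyl phosphate to ornithine, was the only member of this group called higher in *Pparα-/-* than in *WT*. It rose on HFD in *Pparα hep-/-* by 0.22 ± 0.07 (adjusted p = 0.0153, 7 of 8 above the CTRL mean), and was higher in *Pparα-/-* than in *WT* on both diets, by 0.22 and 0.24, without overlap between the groups on HFD. Another *Otc* probe gave -0.21 for the *Pparα hep-/-* diet change, so the direction there depended on the probe, and it was not called for the *Pparα-/-* differences from *WT* (adjusted p = 0.092 and 0.203). With the processed signal none of these 3 *Otc* calls was made.

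*Asl*, which cleaves argininosuccinate, was lowest in *Pparα-/-* on HFD, with values of 13.38, 13.95 and 14.21 there against 13.97, 14.48 and 14.73 in *WT* and 13.96, 14.42 and 14.68 in *Pparα hep-/-*. On CTRL the values were 13.95, 14.42 and 15.09 in *WT*, 14.00, 14.38 and 14.88 in *Pparα hep-/-* and 13.85, 14.28 and 14.67 in *Pparα-/-*, so the 3 genotypes overlapped broadly. The HFD differences were -0.63 ± 0.13 from *WT* (adjusted p = 0.000148) and -0.50 ± 0.13 from *Pparα hep-/-* (adjusted p = 0.00177), with 8 of 8 mice below either mean. A second *Asl* probe gave -0.65 (adjusted p = 0.0661) and -0.29 (adjusted p = 0.469). *Ass1*, which condenses citrulline with aspartate, was lower in *Pparα-/-* than in *Pparα hep-/-* on CTRL by 0.43 ± 0.09 (adjusted p = 0.000224, 8 of 8) and fell on HFD in *WT* by 0.37, and both calls were lost with the processed signal. *Nags*, which makes the activator of carbamoyl phosphate synthetase, and *Slc25a15*, the mitochondrial ornithine carrier, fell on HFD in *Pparα-/-* (-0.28 and -0.46) and were lower there than in *WT* on HFD (-0.38 and -0.36). *Gls2*, the liver glutaminase, fell on HFD in *WT* (-0.33, a call lost with the processed signal) and *Pparα-/-* (-0.30).

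*Glud1*, glutamate dehydrogenase, differed between genotypes and, by its brightest probe, was called in no diet comparison. Its lowest, median and highest signals on CTRL were 15.82, 16.16 and 16.44 in *WT*, 15.51, 15.66 and 15.85 in *Pparα hep-/-* and 15.82, 15.91 and 16.10 in *Pparα-/-*. On HFD they were 16.04, 16.30 and 16.40 in *WT*, 15.72, 15.79 and 15.91 in *Pparα hep-/-* and 15.60, 15.91 and 16.04 in *Pparα-/-*. *Pparα hep-/-* was the lowest by median on both diets, and on HFD all its mice lay below all *WT* mice. The differences of *Pparα hep-/-* from *WT* were -0.52 ± 0.07 on CTRL (adjusted p = 2.08e-07) and -0.46 ± 0.06 on HFD (adjusted p = 3.07e-07), each with 8 of 8 mice below the *WT* mean. Another bright *Glud1* probe (mean signal 12.11) gave -0.43 (adjusted p = 2.15e-05) and -0.52 for these differences, and a dimmer one (mean signal 7.63) gave 0.02 on CTRL. The probe with mean signal 12.11 also fell on HFD in *Pparα-/-* by 0.20 (adjusted p = 0.0226), and its *WT* minus *Pparα-/-* interaction was 0.36 (adjusted p = 0.015).

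Of the 8 aminotransferases, 4 rose and 0 fell on HFD in *WT*, 2 and 0 in *Pparα hep-/-*, and 1 and 2 in *Pparα-/-*, and the diet response differed from *WT* for 1 of them in each mutant. The background for the diet counts was 8.6% and 10.1% in *WT*, 9.46% and 10.8% in *Pparα hep-/-*, and 12.2% and 12.6% in *Pparα-/-*. The 1 increase of 8 in *Pparα-/-* is near that share. For a diet response higher in *WT* the background was 5.79% against *Pparα hep-/-* and 7.42% against *Pparα-/-*. *Got2*, the mitochondrial aspartate aminotransferase, rose by 0.27 in *WT*, by 0.17 in *Pparα hep-/-* and by 0.24 ± 0.05 in *Pparα-/-* (adjusted p = 0.000647, 8 of 8 above the CTRL mean), where the diets did not overlap. The cytosolic partner *Got1* gave changes of -0.63 (adjusted p = 0.189) and -0.54 (adjusted p = 0.164) in *WT* and *Pparα hep-/-*, and fell in *Pparα-/-* by 0.90 ± 0.29 (adjusted p = 0.0189, 8 of 8 below the CTRL mean). The *Got1* change was -1.87 in wash batch 1 and -0.10 in wash batch 2, and its call was lost without *Pparα-/-* HFD replicate 3 or *Pparα-/-* CTRL replicate 4. The alanine aminotransferases *Gpt* (cytosolic) and *Gpt2* (mitochondrial) rose in *WT*, by 0.33 and 0.47, and *Gpt* also in *Pparα hep-/-*, by 0.18. Both were higher in *Pparα hep-/-* than in *WT*, *Gpt* by 0.32 on CTRL and 0.16 on HFD and *Gpt2* by 0.57 and 0.32. With the processed signal the *Gpt* values for the *Pparα hep-/-* diet change and for *Pparα hep-/-* against *WT* on HFD lost their calls and turned sign. *Tat*, tyrosine aminotransferase, fell on HFD in *Pparα-/-* by 0.60.

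*Oat*, ornithine aminotransferase, which is normally concentrated in pericentral hepatocytes, was lowest in *WT* on CTRL, with values of 13.15, 15.10 and 15.59 against 14.78, 15.63 and 16.16 in *WT* on HFD. Signals in *Pparα hep-/-* were 15.05, 16.17 and 16.40 on CTRL and 15.67, 15.90 and 16.49 on HFD, and in *Pparα-/-* 15.21, 16.07 and 16.64 on CTRL and 15.67, 16.25 and 16.40 on HFD. All groups overlapped *WT* on CTRL except *Pparα hep-/-* and *Pparα-/-* on HFD. *Oat* rose on HFD in *WT* by 0.50 ± 0.18 (adjusted p = 0.0473, 7 of 8 above the CTRL mean), a call lost on leaving out any of 18 arrays. On CTRL it was higher than in *WT* by 1.00 ± 0.18 in *Pparα hep-/-* (adjusted p = 3.5e-05, 8 of 8) and by 0.84 in *Pparα-/-*. On HFD it was still higher in *Pparα-/-*, by 0.49 ± 0.16 (adjusted p = 0.00968, 8 of 8), a call lost with the processed signal. Subtracting the *Pparα hep-/-* diet response from that of *WT* left 0.72 ± 0.24 (adjusted p = 0.0435), a call lost on leaving out any of 16 arrays and, among other settings, with the deposited table (adjusted p = 0.0873).

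*Agxt*, the peroxisomal enzyme that turns glyoxylate into glycine, separated the mutants. Its lowest, median and highest signals on CTRL were 15.39, 15.72 and 15.96 in *WT*, 15.13, 15.46 and 15.65 in *Pparα hep-/-* and 15.74, 15.81 and 16.09 in *Pparα-/-*. On HFD they were 15.15, 15.56 and 15.79 in *WT*, 14.88, 15.30 and 15.83 in *Pparα hep-/-* and 15.51, 15.77 and 16.08 in *Pparα-/-*. On CTRL all *Pparα-/-* mice lay above all *Pparα hep-/-* mice, with *WT* overlapping both. *Pparα-/-* exceeded *Pparα hep-/-* by 0.44 on CTRL and by 0.51 ± 0.09 on HFD (adjusted p = 2.8e-05, 8 of 8). *Pparα hep-/-* differed from *WT* on HFD by -0.27 ± 0.10 (adjusted p = 0.0419), with 5 of 8 mice below the *WT* mean, a call lost on leaving out any of 9 arrays.

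Among the 8 genes for aromatic amino acids and histidine, 2 rose on HFD in *WT*, 1 rose and 1 fell in *Pparα hep-/-*, and 3 fell in *Pparα-/-*, and the diet response in *WT* was called higher than in *Pparα hep-/-* for 1 of them and higher than in *Pparα-/-* for 3. The background was 8.6% for an increase in *WT*, 9.46% and 10.8% in *Pparα hep-/-*, and 12.6% for a decrease in *Pparα-/-*. The 1 increase and 1 decrease of 8 in *Pparα hep-/-* are near those shares. For the higher diet responses in *WT* the background was 5.79% and 7.42%. *Kmo*, kynurenine 3-monooxygenase of the tryptophan route to NAD, had a lowest, median and highest signal of 13.42, 13.81 and 14.46 in *WT* on CTRL and 14.20, 14.35 and 14.60 on HFD. The *Pparα hep-/-* mice read 13.19, 14.21 and 14.39 on CTRL and 13.98, 14.22 and 14.34 on HFD, and in *Pparα-/-* 14.02, 14.27 and 14.48 on CTRL and 13.97, 14.16 and 14.27 on HFD. *WT* on CTRL had the lowest median, and the other 5 group medians lay from 14.16 to 14.35. *Kmo* rose on HFD in *WT* by 0.48 ± 0.10 (adjusted p = 0.000653, 8 of 8 above the CTRL mean). Its changes in the mutants were 0.02 (adjusted p = 0.922) and -0.15 (adjusted p = 0.249), and the *WT* response exceeded them by 0.47 ± 0.13 (adjusted p = 0.0209) and 0.63 ± 0.14 (adjusted p = 0.00154). The first of these calls was lost without *WT* CTRL replicate 2, 3 or 5 or *Pparα hep-/-* CTRL replicate 4, and was 0.78 and 0.22 in the 2 wash batches. On CTRL it was higher than in *WT* by 0.42 in *Pparα-/-* and 0.34 in *Pparα hep-/-*. In the 2 wash batches the *WT* change was 0.70 and 0.27. A second probe gave 0.50 for the *WT* change.

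*Tdo2*, which opens the tryptophan ring and starts that route, rose on HFD in *Pparα hep-/-* by 0.37 ± 0.08 (adjusted p = 0.00141, 8 of 8), with 0.09 and 0.51 in the 2 wash batches and no call with the processed signal. *Haao*, later in the same route, fell there by 0.27 ± 0.08 (adjusted p = 0.0137, 6 of 8), a call lost without *Pparα hep-/-* HFD replicate 5 or 6. Without array weights the *Haao* change was -0.10 (adjusted p = 0.763). Its call was also lost without the filter on dim probes and without a wash term. Tyrosine breakdown was read by *Hpd*, *Hgd* and *Fah*. *Hgd*, homogentisate dioxygenase, was lowest in *Pparα-/-* on HFD, with 12.97, 13.14 and 13.37 against 13.19, 13.68 and 13.85 in *WT* and 13.38, 13.56 and 13.63 in *Pparα hep-/-*. On CTRL the values were 13.38, 13.72 and 14.09 in *WT*, 13.53, 13.61 and 13.82 in *Pparα hep-/-* and 13.36, 13.55 and 13.81 in *Pparα-/-*, and the groups overlapped. The HFD difference of *Pparα-/-* from *WT* was -0.58 ± 0.07 (adjusted p = 5.29e-09, 8 of 8 below the *WT* mean). It was -0.40 from *Pparα hep-/-*, without overlap. A second, dimmer *Hgd* probe gave -0.43 (adjusted p = 0.00862) and -0.05 (adjusted p = 0.835) for these differences, and a called diet change of -0.76 in *Pparα hep-/-*. The *WT* diet response of *Hgd* exceeded that of *Pparα-/-* by 0.37 ± 0.11 (adjusted p = 0.0165), and the second probe did not pass (adjusted p = 0.11). *Fah*, the last enzyme of tyrosine breakdown, rose on HFD in *WT* by 0.22, and its response exceeded that of *Pparα-/-* by 0.32 (adjusted p = 0.0197), as did that of *Gpt* by 0.32 (adjusted p = 0.0174).

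Histidine breakdown was read by *Hal*, which deaminates histidine, and *Uroc1*, the next step. *Hal* was higher in *Pparα-/-* than in *Pparα hep-/-* on CTRL by 0.48 ± 0.15 (adjusted p = 0.0132, 8 of 8) and fell on HFD in *Pparα-/-* by 0.52. A second *Hal* probe gave -0.46 (adjusted p = 0.0694) for the first of these, so the direction was not shared by the probes. *Uroc1* fell on HFD in *Pparα-/-* by 0.21 and was lower there than in *Pparα hep-/-* on HFD by 0.43.

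Among the members, each read by its brightest probe, the largest called increases of *Pparα-/-* over both other genotypes were in branched chain catabolism on either diet. *Bckdhb*, the E1 beta subunit of the branched chain keto acid dehydrogenase, had a lowest, median and highest signal of 14.14, 14.38 and 14.67 in *WT* on CTRL and 14.64, 14.73 and 15.00 on HFD. Signals in *Pparα hep-/-* were 14.38, 14.55 and 14.68 on CTRL and 14.71, 14.89 and 15.08 on HFD. In *Pparα-/-* they were 15.39, 15.54 and 15.65 on CTRL and 15.51, 15.80 and 15.92 on HFD. All 16 *Pparα-/-* mice lay above all 32 other mice. *Pparα-/-* exceeded *WT* by 1.15 ± 0.07 on CTRL (adjusted p = 2.95e-18) and 1.02 ± 0.06 on HFD (adjusted p = 7.31e-19). It exceeded *Pparα hep-/-* by 0.99 ± 0.06 (adjusted p = 1.33e-17) and 0.86 ± 0.06 (adjusted p = 3.34e-17), with 8 of 8 mice beyond the other mean each time. *Pparα hep-/-* itself differed from *WT* by 0.17 on CTRL (adjusted p = 0.0597) and 0.16 on HFD (adjusted p = 0.0472). The HFD call was lost with the processed signal and with the deposited table. A second *Bckdhb* probe gave 1.14 (adjusted p = 1.72e-16) for *Pparα-/-* against *WT* on CTRL and 1.11 on HFD.

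HFD raised *Bckdhb* in every genotype, by 0.37 in *WT*, by 0.36 ± 0.06 in *Pparα hep-/-* (adjusted p = 1.68e-05, 8 of 8, no overlap between the diets) and by 0.24 ± 0.06 in *Pparα-/-* (adjusted p = 0.00354, 7 of 8). *Bckdha*, the E1 alpha subunit of the same complex, rose in *WT* by 0.18 and in *Pparα-/-* by 0.15 ± 0.05 (adjusted p = 0.02, 8 of 8). With the processed signal the *Pparα-/-* increases of *Bckdhb*, *Got2* and *Bckdha* were not called, and that of *Bckdha* was -0.0062.

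*Bcat2*, the mitochondrial branched chain aminotransferase, was also higher in *Pparα-/-* than in either other genotype on both diets. Its lowest, median and highest signals were 8.86, 9.15 and 9.39 in *WT* on CTRL, 8.90, 9.24 and 9.52 in *WT* on HFD, 8.96, 9.40 and 9.83 in *Pparα hep-/-* on CTRL and 8.78, 9.27 and 9.72 in *Pparα hep-/-* on HFD. In *Pparα-/-* they were 9.98, 10.21 and 10.48 on CTRL and 10.16, 10.42 and 10.73 on HFD. All *Pparα-/-* mice lay above all others and the other 4 groups overlapped. *Bcat2* was also called higher in *Pparα hep-/-* than in *WT* on CTRL, by 0.30 (adjusted p = 0.0431), a call lost with the processed signal and with the deposited table. The differences from *WT* were 1.10 ± 0.12 on CTRL (adjusted p = 1.56e-10) and 1.10 ± 0.10 on HFD (adjusted p = 1.45e-12). Those from *Pparα hep-/-* were 0.80 ± 0.10 (adjusted p = 3.77e-08) and 1.17 ± 0.09 (adjusted p = 4.04e-14), again with 8 of 8 mice each time. A second, dimmer probe with a mean signal of 6.27 gave smaller differences from *WT* of 0.27 (adjusted p = 0.00239) and 0.19 (adjusted p = 0.00812). Its difference from *Pparα hep-/-* on CTRL was 0.17 (adjusted p = 0.0506) and was not called. Because *Bcat2* is expressed mainly in cells other than hepatocytes and the RNA was from whole liver, more cells of a type and more RNA per cell cannot be told apart. Marker lists beside this result were mixed. On CTRL, where *Bcat2* differed as much as on HFD, 4 of 12 Kupffer cell and macrophage genes (with 1 lower) and 1 of 10 stellate cell and fibroblast genes were higher in *Pparα-/-* than in *WT*, against 10 of 12 and 10 of 10 on HFD. Their summed log2 signals on CTRL ran from 14.71 to 16.43 in *WT* and 15.01 to 16.65 in *Pparα-/-* for the first list, and 14.31 to 16.47 and 14.30 to 16.19 for the second. Their part in the *Bcat2* difference was not tested.

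The promoters of *Bckdhb* and *Bcat2*, and of *Bhmt* and *Kmo* described further on, are shown because the first pair had the largest called increases of *Pparα-/-* over *WT* on both diets among the members' brightest probes, and the second pair were the 2 members whose diet response in *WT* exceeded that in both mutants. Promoter sequences were those of RefSeq for the GRCm38.p6 assembly, 250 bases before to 50 after the start, and 30 of the 39 genes matched. Capitals mark AGGTCA, which is the core bound by many nuclear receptors, and also a CCAAT box, a GC box with the letters GGGCGG and a TATA box with the letters TATAAA, each searched on both strands, and no match overlapped another here. Of 32851 promoters of this length, 16.3% held the nuclear receptor core, 37.4% the CCAAT box, 35.7% the GC box and 13.6% the TATA box. *Bckdhb* lies at chr9:83924887-83925186 (plus strand, the farther upstream of 2 listed), *Bcat2* at chr7:45569903-45570202 (plus strand, 1 of 2 listed), *Bhmt* at chr13:93637709-93638008 (minus strand) and *Kmo* at chr1:175631943-175632242 (plus strand).
Bckdhb: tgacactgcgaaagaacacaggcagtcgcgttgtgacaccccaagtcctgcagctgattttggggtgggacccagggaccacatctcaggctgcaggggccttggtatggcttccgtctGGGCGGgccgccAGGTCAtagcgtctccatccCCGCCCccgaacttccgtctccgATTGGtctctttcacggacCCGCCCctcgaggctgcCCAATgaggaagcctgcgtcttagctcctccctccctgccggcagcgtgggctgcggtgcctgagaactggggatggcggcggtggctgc
Bcat2: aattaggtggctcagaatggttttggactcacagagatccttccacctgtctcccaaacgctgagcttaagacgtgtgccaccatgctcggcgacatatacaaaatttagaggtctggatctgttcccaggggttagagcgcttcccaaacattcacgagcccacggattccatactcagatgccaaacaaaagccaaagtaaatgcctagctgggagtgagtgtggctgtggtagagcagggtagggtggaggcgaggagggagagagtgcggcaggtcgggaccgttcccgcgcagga
Bhmt: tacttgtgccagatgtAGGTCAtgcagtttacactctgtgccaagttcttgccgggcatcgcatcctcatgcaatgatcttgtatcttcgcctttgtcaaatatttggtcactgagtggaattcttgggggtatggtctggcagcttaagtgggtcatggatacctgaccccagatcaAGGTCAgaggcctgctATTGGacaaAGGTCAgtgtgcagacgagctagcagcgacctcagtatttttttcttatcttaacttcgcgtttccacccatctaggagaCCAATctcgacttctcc
Kmo: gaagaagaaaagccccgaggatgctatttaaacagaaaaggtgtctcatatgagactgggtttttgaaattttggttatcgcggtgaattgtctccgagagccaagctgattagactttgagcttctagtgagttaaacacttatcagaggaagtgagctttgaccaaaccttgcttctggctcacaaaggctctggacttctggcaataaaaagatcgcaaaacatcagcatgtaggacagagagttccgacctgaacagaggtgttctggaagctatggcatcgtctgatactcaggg
*Bckdhb* held the nuclear receptor core at -119 from the start together with CCAAT and GC box matches, and *Bhmt* held the core at -234, -72 and -47. *Bcat2* and *Kmo* held none of the 4 motifs in this window. Over the list, 12 of 33 promoters (36.4%) held this core, 15 (45.5%) the CCAAT box, 14 (42.4%) the GC box and 4 (12.1%) the TATA box. A match is a run of letters and was not tested as a binding site.

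**Figure D3:**
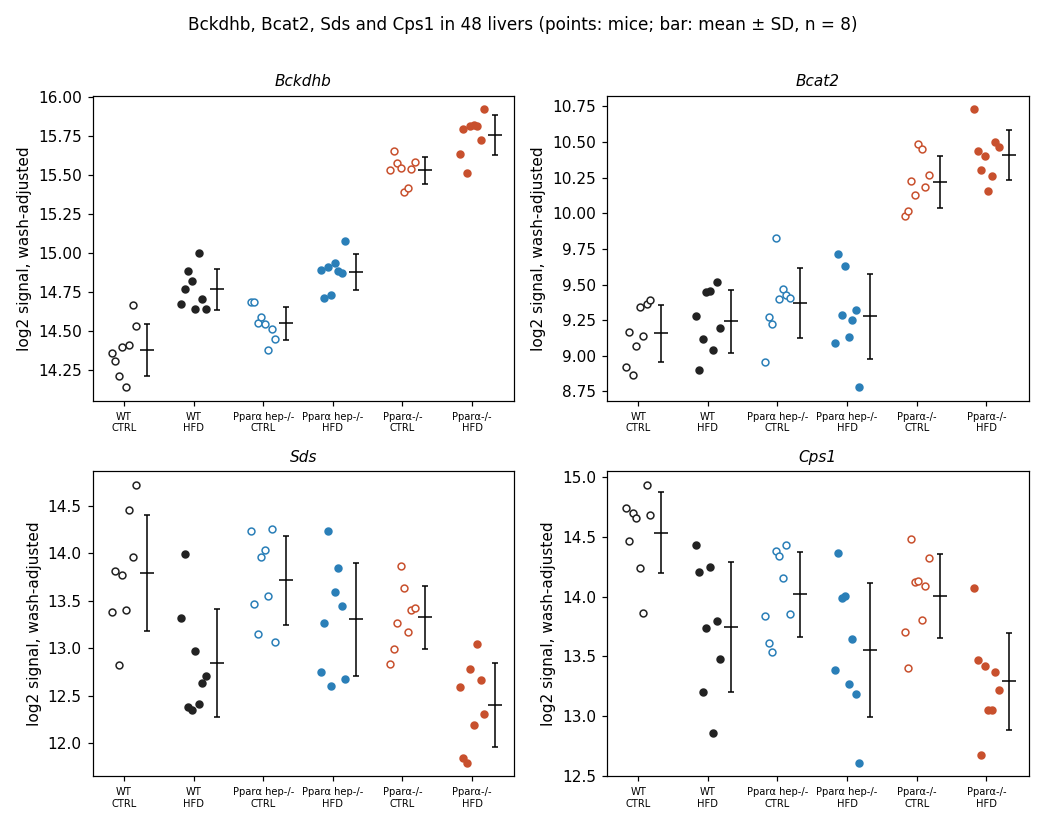
Log2 signal of Bckdhb, Bcat2, Sds and Cps1 in each mouse of the 6 groups, 8 mice per group, with bars at the mean ± SD. For Bckdhb and Bcat2 all 16 Pparα-/- points lie above all 32 others.

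*Sds*, serine dehydratase, which turns serine into pyruvate for glucose synthesis, had a lowest, median and highest signal of 12.83, 13.79 and 14.72 in *WT* on CTRL and 12.36, 12.67 and 13.99 on HFD. The *Pparα hep-/-* mice read 13.07, 13.76 and 14.26 on CTRL and 12.61, 13.36 and 14.24 on HFD, and in *Pparα-/-* 12.83, 13.33 and 13.87 on CTRL and 11.80, 12.45 and 13.04 on HFD. *Sds* varied between mice of every group and all groups on one diet overlapped. It fell on HFD by 0.94 ± 0.25 in *WT* (adjusted p = 0.00577, 7 of 8 below the CTRL mean) and by 0.95 ± 0.22 in *Pparα-/-* (adjusted p = 0.00154, 8 of 8). In *Pparα hep-/-* the change was -0.21 (adjusted p = 0.527), and neither interaction with that genotype passed. On HFD, *Pparα hep-/-* exceeded *WT* by 0.69 ± 0.22 (adjusted p = 0.0171, 5 of 8 above the *WT* mean), a call lost without *Pparα hep-/-* HFD replicate 6 and with the processed signal. *Pparα-/-* lay below *Pparα hep-/-* by 1.03 ± 0.20 (adjusted p = 9.68e-05, 8 of 8). A second *Sds* probe gave smaller values, -0.31 (adjusted p = 0.509) for *WT* on HFD, -0.70 (adjusted p = 0.0337) for *Pparα-/-* on HFD and -0.32 (adjusted p = 0.319) between the mutants.

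*Sdsl*, its serine dehydratase-like neighbour, was highest in *WT* on CTRL, with 12.10, 12.46 and 13.13 against 11.51, 11.77 and 12.85 in *WT* on HFD. Signals in *Pparα hep-/-* were 11.83, 12.14 and 12.78 on CTRL and 11.71, 12.04 and 12.44 on HFD, and in *Pparα-/-* 11.42, 11.64 and 12.12 on CTRL and 11.13, 11.43 and 11.68 on HFD. *Pparα-/-* had the lowest median on each diet, and on HFD its mice all lay below those of *Pparα hep-/-*. *Sdsl* fell on HFD in *WT* by 0.67 ± 0.14 (adjusted p = 0.000658, 7 of 8 below the CTRL mean), and the *WT* response lay below that of *Pparα hep-/-* by 0.62 ± 0.19 on the log2 scale (adjusted p = 0.025). That call was lost without *WT* HFD replicate 7 or *Pparα hep-/-* HFD replicate 6, and with the processed signal (adjusted p = 0.0542). *Pparα-/-* differed from *WT* on CTRL by -0.82 ± 0.14 (adjusted p = 1.1e-05). It differed from *Pparα hep-/-* by -0.47 ± 0.13 on CTRL (adjusted p = 0.00456) and -0.69 ± 0.12 on HFD (adjusted p = 6.29e-06), with 8 of 8 mice below the other mean each time.

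*Prodh*, the proline dehydrogenase that starts proline breakdown, was lowest in *WT* on CTRL, with 13.80, 14.43 and 15.22 there and 14.54, 14.91 and 15.18 in *WT* on HFD. In *Pparα hep-/-* the values were 14.08, 15.39 and 15.60 on CTRL and 15.22, 15.37 and 15.51 on HFD, and in *Pparα-/-* 15.11, 15.27 and 15.41 on CTRL and 15.20, 15.34 and 15.48 on HFD. On HFD all *Pparα hep-/-* and all *Pparα-/-* mice lay above all *WT* mice. The differences from *WT* were 0.80 ± 0.10 in *Pparα hep-/-* on CTRL (adjusted p = 1.83e-07, 7 of 8), 0.68 in *Pparα-/-* on CTRL, and 0.38 and 0.34 on HFD. HFD raised *Prodh* in *WT* by 0.41, more than in *Pparα hep-/-* by 0.42 (adjusted p = 0.0443), a call lost with the deposited table. *Prodh2*, which oxidises hydroxyproline, rose in *WT* by 0.28. *Aass*, the first enzyme of lysine breakdown, was higher in *Pparα hep-/-* than in *WT* by 0.36 on CTRL and by 0.40 ± 0.11 on HFD (adjusted p = 0.00513, 8 of 8). *Gldc*, of the glycine cleavage system, was higher there on HFD by 0.48 ± 0.16 (adjusted p = 0.0224, 6 of 8), a call lost without *WT* HFD replicate 5 or *Pparα hep-/-* HFD replicate 6 or 7. With the processed signal the *Prodh*, *Aass* and *Gldc* differences of *Pparα hep-/-* from *WT* on HFD, and that of *Prodh* in *Pparα-/-*, were not called.

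*Bhmt*, which remakes methionine from homocysteine with betaine as methyl donor, had a lowest, median and highest signal of 15.79, 17.51 and 17.80 in *WT* on CTRL and 17.32, 17.95 and 18.26 on HFD. The *Pparα hep-/-* mice read 17.69, 18.08 and 18.26 on CTRL and 17.89, 18.12 and 18.29 on HFD, and in *Pparα-/-* 17.81, 17.94 and 18.04 on CTRL and 17.88, 17.97 and 18.12 on HFD. Within *WT* on CTRL, replicates 2, 3 and 5 read 16.13, 15.79 and 16.27, whereas the other 5 mice read 17.50 to 17.80, and no mouse of another group was below 17.32. *Bhmt* rose on HFD in *WT* by 1.01 ± 0.17 (adjusted p = 3.57e-05, 8 of 8 above the CTRL mean). On CTRL it was higher than in *WT* by 1.13 ± 0.16 in *Pparα hep-/-* (adjusted p = 1.61e-06) and by 0.99 ± 0.17 in *Pparα-/-* (adjusted p = 9.72e-06), with 8 of 8 mice each and no overlap for *Pparα-/-*. On HFD it differed from *WT* by 0.18 in *Pparα hep-/-* (adjusted p = 0.394) and 0.03 in *Pparα-/-* (adjusted p = 0.897).

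The diet changes of *Bhmt* in the mutants were 0.07 (adjusted p = 0.776) and 0.05 (adjusted p = 0.85). The *WT* response exceeded that of *Pparα hep-/-* by 0.94 ± 0.22 (adjusted p = 0.00537) and that of *Pparα-/-* by 0.97 ± 0.23 (adjusted p = 0.00325). All 5 of these *Bhmt* results share the *WT* CTRL mice. In wash batch 1, which held replicates 2 and 3, the *WT* diet change was 1.39, and in wash batch 2 it was 0.66. Leaving out any 1 array gave 0.80 to 1.18. The other 2 *Bhmt* probes gave larger changes on HFD in *WT*, 1.66 (adjusted p = 1.16e-05) and 1.44 (adjusted p = 0.00144). The dimmer of them also fell on HFD in *Pparα-/-* by 0.83 (adjusted p = 0.0321).

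Pericentral marker genes differed in some of the same comparisons. Their summed log2 signal ran from 17.70 to 19.02 in *WT* on CTRL, 18.85 to 19.16 in *WT* on HFD, 18.36 to 19.14 in *Pparα hep-/-* on CTRL and 19.11 to 19.35 in *Pparα-/-* on CTRL. Of 11 such genes, 8 were higher in *Pparα-/-* than in *WT* on CTRL, 3 in *Pparα hep-/-*, and 3 rose on HFD in *WT*. On HFD, 6 of the 11 were higher in *Pparα-/-* than in *WT*, where the differences of *Oat*, *Prodh*, *Bhmt* and *Kmo* were 0.49, 0.34, 0.03 and -0.21, the first 2 of them called, and in *Pparα hep-/-* 2 were higher and 1 lower. Of 10 periportal genes that are not members, 2, 2 and 0 were higher and 1, 2 and 1 lower in the CTRL comparisons and the *WT* diet comparison, and 5 were higher and 2 lower in *Pparα-/-* than in *WT* on HFD. The part of zonation in the *Oat*, *Prodh*, *Kmo* and *Bhmt* differences was not tested.

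**Figure D4:**
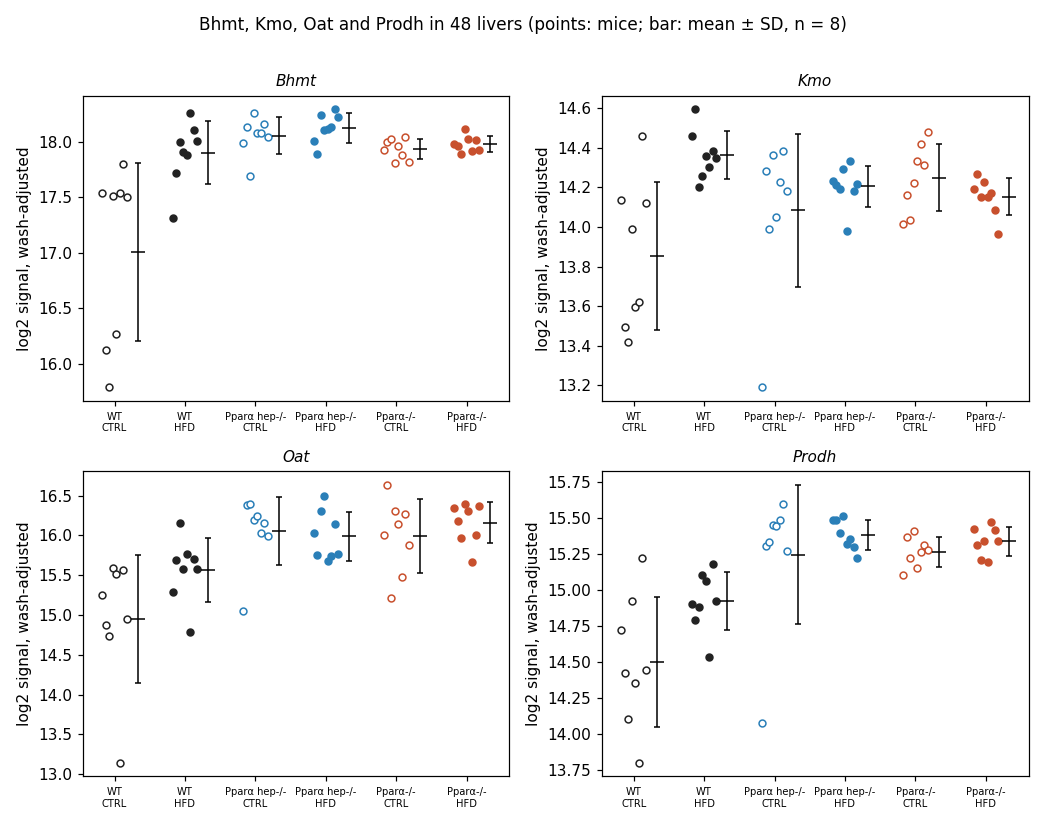
Log2 signal of Bhmt, Kmo, Oat and Prodh in each mouse of the 6 groups, 8 mice per group, with bars at the mean ± SD. WT on CTRL has the lowest mean and median for all 4 genes, and for Bhmt 3 of its 8 mice lie between 15.79 and 16.27, below every other mouse.

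The transsulfuration enzyme *Cbs*, which draws homocysteine toward cysteine, went the other way from *Bhmt*. Its lowest, median and highest signals were 15.31, 15.58 and 15.82 in *WT* on CTRL, 14.86, 15.26 and 15.91 in *WT* on HFD, 14.86, 15.31 and 15.85 in *Pparα hep-/-* on CTRL and 15.04, 15.47 and 15.65 in *Pparα hep-/-* on HFD. In *Pparα-/-* they were 15.07, 15.23 and 15.67 on CTRL and 14.77, 15.22 and 15.41 on HFD. *WT* on CTRL had the highest median, and all groups overlapped. On CTRL, *Cbs* was lower than in *WT* by 0.39 ± 0.11 in *Pparα hep-/-* (adjusted p = 0.0082) and by 0.38 ± 0.12 in *Pparα-/-* (adjusted p = 0.0116), each with 7 of 8 mice below the *WT* mean. It fell on HFD in *WT* by 0.32 (adjusted p = 0.0478). The *WT* response lay below that of *Pparα hep-/-* by 0.49 ± 0.15 on the log2 scale (adjusted p = 0.0349), a call lost on leaving out any of 9 arrays. Both of these calls were lost with the processed signal.

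*Gnmt*, which uses up S-adenosylmethionine by methylating glycine, was highest in *Pparα hep-/-* on CTRL. Its values there were 16.59, 17.12 and 17.49, against 16.32, 16.56 and 16.82 in *WT* and 16.64, 16.78 and 17.18 in *Pparα-/-* on CTRL. On HFD they were 16.13, 16.49 and 16.82 in *WT*, 16.47, 16.80 and 17.16 in *Pparα hep-/-* and 16.29, 16.61 and 17.12 in *Pparα-/-*, and all groups overlapped. *Gnmt* fell on HFD in *Pparα hep-/-* by 0.40 ± 0.10 (adjusted p = 0.00396, 7 of 8 below the CTRL mean). On CTRL it was lower in *Pparα-/-* than in *Pparα hep-/-* by 0.37 ± 0.11 (adjusted p = 0.00867, 7 of 8), a call lost without *Pparα hep-/-* CTRL replicate 4, and higher in *Pparα hep-/-* than in *WT* by 0.59. *Mat1a*, which makes S-adenosylmethionine, rose on HFD in *WT* by 0.40 and was higher in *Pparα hep-/-* than in *WT* on CTRL by 0.38. *Cth*, the step after *Cbs*, was higher in *Pparα-/-* than in *WT* on CTRL by 0.44. *Asns*, asparagine synthetase, had the largest SD between mice of the 39 genes in 5 of the 6 groups. Its signal ran from 7.65 to 10.86 in *WT* on CTRL and from 6.97 to 12.40 in *WT* on HFD. Its difference of 1.16 between *Pparα-/-* and *WT* on CTRL did not pass (SE 0.63, adjusted p = 0.161). Of 17 tested genes of the ATF4 and amino acid response list, a programme that is known to drive *Asns*, 2 fell on HFD in *WT*, 5 rose in *Pparα hep-/-*, and 6 rose and 1 fell in *Pparα-/-*.

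Where a member had more than 1 tested probe and its main probe was called, another probe mostly had the same sign. There were 23 other probes of 20 members. Pairs of another probe and a comparison called by the main probe numbered 85. Of these, 79 had the same sign, 55 were called the same way and 0 were called the opposite way. Comparisons called only by another probe are outside this count. For example, a dim *Haao* probe (mean signal 6.89) was higher in *Pparα-/-* than in *WT* on CTRL by 0.60 (adjusted p = 1.93e-05), where the main probe gave -0.07. The remaining 19 members rested on 1 tested probe. On mm9, the build of the array files, the probes read for the 4 genes with printed promoters lay at chr9:84017787-84017846 for *Bckdhb*, chr7:52844940-52844999 for *Bcat2*, chr13:94386862-94386921 for *Bhmt* and chr1:177590673-177590732 for *Kmo*, and their place in exon or UTR was not examined.

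The rest of amino acid catabolism was read from a list of 83 other genes, of which 80 were tested. On HFD 35 of them rose and 3 fell in *WT*, 12 rose and 10 fell in *Pparα hep-/-*, and 8 rose and 13 fell in *Pparα-/-*. The background was 8.6% and 10.1% in *WT*, 9.46% and 10.8% in *Pparα hep-/-* and 12.2% and 12.6% in *Pparα-/-*. By role, those that rose in *WT* were 11 of 19 for branched chain amino acids, 10 of 16 for glycine, serine and one-carbon units, 3 of 12 for ammonia, glutamine and transport, 4 of 11 for tryptophan, phenylalanine and tyrosine, 3 of 11 for histidine, lysine, proline and threonine, and 4 of 11 for methionine, cysteine and taurine. The most that fell in any of these was 1. In *Pparα hep-/-* the largest increase was that of *Agxt2*, a mitochondrial aminotransferase, at 0.63 ± 0.07 (adjusted p = 1.12e-08, 8 of 8). *Acmsd*, which diverts tryptophan carbon away from NAD, had the largest decrease in all 3 genotypes. It fell by 1.36 ± 0.30 in *WT* (adjusted p = 0.00094, 7 of 8), 1.22 ± 0.25 in *Pparα hep-/-* (adjusted p = 0.000604, 8 of 8) and 1.33 ± 0.26 in *Pparα-/-* (adjusted p = 0.000282, 8 of 8).

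Between genotypes on CTRL, 28 of the 80 were higher and 11 lower in *Pparα-/-* than in *WT*, and 22 and 7 in *Pparα hep-/-* (background 15.6% and 18.7%, and 11.3% and 13.4%). On HFD, 14 were higher and 22 lower in *Pparα-/-*, which is near the background of 21.8% and 24%, and 9 and 20 in *Pparα hep-/-* (background 13.3% and 13.4%). *Rhbg*, an ammonia transporter of pericentral hepatocytes, was the most raised of them, by 1.78 ± 0.23 in *Pparα-/-* on CTRL (adjusted p = 3.53e-08), 1.35 ± 0.22 in *Pparα hep-/-* on CTRL (adjusted p = 1.36e-05) and 1.64 ± 0.20 in *Pparα-/-* on HFD (adjusted p = 4.74e-09), with 8 of 8 mice above the *WT* mean each time. *Slc25a22*, a mitochondrial glutamate carrier, was the most lowered on CTRL, with differences from *WT* of -1.25 ± 0.13 (adjusted p = 1.32e-10) and -0.86 ± 0.12 (adjusted p = 1.42e-06) and no overlap. *Csad*, which makes the precursor of taurine, was the most lowered in *Pparα-/-* on HFD, at -1.53 ± 0.28 (adjusted p = 1.77e-05, 8 of 8 below the *WT* mean).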

How the data were processed

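Liver RNA of 48 mice was hybridised in a single colour (Cy3) to Agilent mouse arrays, and the authors deposited Feature Extraction 10.10.1.1 output with a spot intensity for each probe, together with a table of normalised log2 values. Their methods name limma with quantile normalisation of log2 median intensity and a correction for wash batch, and probe positions in the files are on mm9. From the median intensity, outlier and control spots were dropped and the log2 values of the spots of a probe averaged. A probe was tested if, in any group, 4 or more of the 8 arrays were well above background (33323 probes). The tested probes were then quantile normalised. Group means with a wash batch term and array weights were fitted to all 48 arrays in limma 3.58.1 (R 4.3.3; files read by the data.table package, version 1.17.8), 195 missing values left out, and 12 comparisons were tested with Benjamini-Hochberg adjustment over all tested probes (threshold 0.05). A fitted change weights arrays, so it can differ from the difference of medians. Labels gave all groups, and whether replicates within a group shared a litter or cage is not given in the sources used here. The number of arrays limits the precision.

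The member genes, the other gene lists and the tests were chosen with earlier results of these data known. Full statistics were given to the 3 largest called increases and decreases of each comparison, and the lowest, median and highest signal of each group to members named so in at least 2 comparisons. For the other pathway genes, the largest called change in each direction was given for 6 comparisons. Some results that these rules name are not reported here, and counts include them. Alternatives were no array weights, normexp background correction (offset 50), the scanner's processed signal scaled to the 75th percentile, the deposited log2 table, other filters, slide or no batch term, the replicate number as a block, a threshold of 0.01, other probes of a gene, each wash batch alone, each array left out, and the 4 arrays of low weight left out. The deposited table was used in that alternative only. The fitting code was tested on data simulated with the means and spreads of these arrays.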

Additional observations from a re-analysis of the deposited data

Results flagged for a closer look

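In 234 sets of 8 mice (39 genes in 6 groups), 13 held a mouse whose gap to its nearest neighbour, divided by the range of the set, exceeded Dixon's critical value, and chance flags about 1 in 20 sets. Of these, 4 were *Pparα hep-/-* CTRL replicate 1, an array of low weight, which read 15.05 for *Oat* (nearest 15.99), 13.19 for *Kmo* (nearest 13.99), 15.09 for *Haao* (nearest 15.74) and 14.08 for *Prodh* (nearest 15.27). Another 2 were *WT* CTRL replicate 6, also of low weight, at 13.15 for *Oat* (nearest 14.74) and 14.76 for *Haao* (nearest 15.44). The other low mice were *Pparα hep-/-* HFD replicate 8 at 11 for *Nags*, *Pparα hep-/-* HFD replicate 5 at 13.98 for *Kmo*, *Pparα-/-* CTRL replicate 2 at 14.41 for *Fah* and *Pparα-/-* HFD replicate 8 at 14.77 for *Cbs*. The high mice were *Pparα-/-* CTRL replicate 3 at 16.09 for *Agxt*, *Pparα-/-* HFD replicate 1 at 15.91 for *Haao* and *Pparα hep-/-* HFD replicate 3 at 15.73 for *Aass*. The 3 low *Bhmt* mice of *WT* on CTRL lie close to each other and so were not marked.

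The log2 diet response differed between *WT* and *Pparα hep-/-* by the limma interaction for *Bhmt* (0.94), *Oat* (0.72), *Kmo* (0.47), *Prodh* (0.42), *Cbs* (-0.49) and *Sdsl* (-0.62). Between *WT* and *Pparα-/-* it differed for *Bhmt* (0.97), *Kmo* (0.63), *Hgd* (0.37), *Gpt* (0.32) and *Fah* (0.32). All of these interactions contain the *WT* CTRL mice.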

How the results depend on the processing

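Counts of called members within 1.5 times of those reported are not repeated here. Without array weights the counts were 4 for the *Pparα hep-/-* diet change, 8 for the *Pparα-/-* diet change, 7 for *Pparα hep-/-* against *WT* on CTRL and 5 on HFD, 0 for *WT* minus *Pparα hep-/-* and 2 for *WT* minus *Pparα-/-*. Without a filter on dim probes the diet counts were 5 and 9 in the mutants, with 4 for *Pparα hep-/-* against *WT* on HFD and 1 and 2 for the interactions with *WT*. At a threshold of 0.01 they were 11, 4 and 8 for diet in *WT*, *Pparα hep-/-* and *Pparα-/-*, 11 and 8 for *Pparα-/-* and *Pparα hep-/-* against *WT* on CTRL, 4 for *Pparα hep-/-* on HFD, and 1 and 2 for the interactions. *Pparα hep-/-* against *WT* on HFD gave 5 without a wash term and 7 with slide in its place, and *WT* minus *Pparα hep-/-* gave 1 and 3. With the processed signal the interactions gave 12 and 11. With all tested probes of a gene, *WT* minus *Pparα-/-* gave 8 and the difference between the mutants 1. Leaving out the 4 arrays of low weight, an alternative chosen after seeing the data, gave 8 for *WT* minus *Pparα-/-*, 17, 9 and 14 for diet in *WT*, *Pparα hep-/-* and *Pparα-/-*, and the same calls for all 62 named results. The causes were not tested.

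The processed signal also shifted the members as a set: 1052 tested probes as bright as the middle of the members had a median log2 change of -0.10 in the *Pparα-/-* diet comparison, against 0.04 with quantile normalisation, and the members -0.30 against -0.12. No called member turned to the opposite call. Among single results, the *Pparα-/-* diet change of *Bckdha* became -0.0062 with the processed signal, which also turned the sign of 2 called *Gpt* values, and another probe gave -0.21 for *Otc* in the *Pparα hep-/-* diet comparison, 0.0205 for *Glud1* in *Pparα hep-/-* against *WT* on CTRL (a brighter one -0.43) and -0.46 for *Hal* between the mutants on CTRL. Of the 62 named results, 20 lost their call without array weights, 19 at a threshold of 0.01, 15 with the processed signal (*Bckdha* included), 14 without the filter, 11 without a wash term, 7 with slide in its place, 4 with the deposited table and 0 with normexp. Within the wash batches no named result changed sign.

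Replicate numbers were shared between groups but did not mark pairs: over 120 same-numbered pairs of mice the median correlation of their deviations was 0.0108, against 0.0045 for other numbers. With the replicate number as a block the counts were 16, 7 and 16 for diet in *WT*, *Pparα hep-/-* and *Pparα-/-*, 3 for *WT* minus *Pparα hep-/-* and 6 for *WT* minus *Pparα-/-*, and 3 named results lost their call.

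Leaving out each array in turn gave 11 to 18 calls for diet in *WT*, 5 to 9 in *Pparα hep-/-* and 9 to 15 in *Pparα-/-*. On CTRL it gave 15 to 19 for *Pparα-/-* against *WT*, 10 to 16 for *Pparα hep-/-* against *WT* and 9 to 11 between the mutants, and on HFD 13 to 19, 6 to 15 and 10 to 16. For the interactions it gave 2 to 8 for *WT* minus *Pparα hep-/-*, 4 to 7 for *WT* minus *Pparα-/-* and 0 to 1 between the mutants. Of 62 named results 16 lost their call without some array, and 0 changed sign.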
